A study of Oncorhynchus mykiss with 9 samples.

Results

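The genes described here code for the regulators and executioners of apoptosis in splenic IgM+ B cells of rainbow trout. They were chosen by description: every gene of the deposited table with at least 5 reads in a library whose protein description names a numbered caspase, Bcl-2, apoptosis, an apoptotic factor, a baculoviral IAP repeat, an inhibitor of apoptosis, or the Mcl-1 name "induced myeloid leukemia cell differentiation". The description fitted 149 genes, of which 24 stayed under 5 reads in every library, so that 125 of the 31691 genes kept are described. They comprise 39 genes of the Bcl-2 family, 16 caspases, 16 genes of the inhibitor of apoptosis (IAP) family, 9 apoptosome and mitochondrial factors, 7 genes of the death receptor complex and the adaptor ASC, 10 p53-linked genes and 28 other genes named for apoptosis. The rule itself uses the description and the read minimum, and it was set with earlier results of these data known.

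The 9 RNA-seq libraries were made from IgM+ B cells sorted by flow cytometry out of cultured spleen leukocytes of healthy female trout, in 3 groups of 3. Control cultures were left unstimulated, and the others received the hapten TNP coupled to keyhole limpet hemocyanin (TNP-KLH), used in the study as a thymus-dependent antigen, or to bacterial lipopolysaccharide (TNP-LPS), used as a thymus-independent type 1 antigen, each for 24 h. The dose is 5 µg/ml in the study's methods and 5 mg/ml in the sample labels. Antigen was added to whole leukocyte cultures before the sort, so other spleen cells were present during stimulation, and the sources used here do not say if the libraries of a group are from separate fish, so that p-values measure only the spread between these libraries. Library totals ran from 8080787 to 12164154 counts, and the 125 genes took between 0.409% and 0.662% of each total.

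Apoptosis runs along a mitochondrial and a receptor route. In the mitochondrial route, survival proteins of the Bcl-2 family (Bcl-2, Bcl-xL, Bcl-w, Mcl-1) hold back the pore formers BAX, BAK and BOK, and BH3-only proteins such as BIM, BAD and BMF overcome that hold; an open pore releases cytochrome c, which assembles APAF1 and caspase-9 into the apoptosome. In the receptor route, death receptors recruit FADD and caspase-8, a step that cFLIP limits; both routes end in the executioner caspases, which IAP proteins restrain. In mammals, resting B cells depend on these survival proteins, and activation through the antigen receptor or innate receptors changes their balance.

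Levels are given as CPM, read counts scaled to the size of the library with TMM factors, for control, TNP-KLH and TNP-LPS libraries in the order of their replicate numbers 1, 2 and 3. Since gene lengths were not at hand, levels are compared between libraries and never between genes. Adjusted p-values come from the quasi-likelihood test of edgeR on 9 libraries, adjusted by Benjamini-Hochberg over all 31691 genes with 0.05 as the threshold, and the value after ± is the standard error (SE) of the log2 fold change. Libraries that shared a replicate number deviated together from their group means, so a second edgeR fit with the replicate number as a block, which compares libraries within a number, is given beside it for the genes named where it changes a call. Both antigen comparisons use the same 3 control libraries.

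With TNP-LPS, 19 of the 125 genes rose and 3 fell, beside a background of 16.8% of all genes called in either direction, 10.04% higher and 6.73% lower. With the replicate block 33 were called higher and 12 lower, where the background was 30.5% (16.3% higher and 14.2% lower). DESeq2 called 26 higher and 5 lower at backgrounds of 13.8% and 10.4%. The median log2 fold change was 0.27 over the 125 genes and -0.09 over all genes kept. With TNP-KLH, edgeR called none of the 125 in either direction at a background of 0.877% (0.760% higher and 0.117% lower), although 22 had an unadjusted p under 0.05 (12.6% of all genes) and DESeq2 called 2 higher (background 5.06%). With the block, 14 were called higher and 3 lower with TNP-KLH at a background of 10.3% (6.05% higher and 4.23% lower). Of the 45 block calls for TNP-LPS, 30 held in every fit that left out 1 of the 9 libraries and 35 held without the libraries numbered 2. Of the 17 for TNP-KLH, 3 and 14 did so. The share of all called genes that held in these fits was not computed, so these counts of kept calls have no background. In the block fit, 12 genes were higher with both antigens, 3 were lower with both and 0 moved in opposite directions. Both comparisons share their controls, and the share of all genes called in both was not computed, so these counts have no background. The libraries hold bulk RNA of sorted cells, in which fewer cells of a type and less RNA per cell cannot be told apart.

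Direct comparison of TNP-LPS with TNP-KLH called 0 of the 125 genes (background 2.87%, of which 2.12% higher and 0.745% lower), with 18 at an unadjusted p under 0.05 (15.4% of all genes), and DESeq2 called 5 higher (background 7.54%). With the block, 10 were higher and 5 lower with TNP-LPS, at a background of 14.4% (8.49% higher and 5.94% lower). Of these 15 block calls 2 held in every leave-one-out fit, a count that likewise has no background. In the comparison of TNP-LPS with control, 10 genes rose when TNP-LPS 2 was left out, where 7.59% of all genes did, and 9 rose and 1 fell when the libraries numbered 2 were left out of every group, where 5.500% of all genes rose and 2.39% fell. Leaving out any other library gave 13 to 19 higher, at 8.100% to 9.19% of all genes. The share of all genes called was thus also lower in each of these fits than the 10.04% with all libraries.

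**Figure D1:**
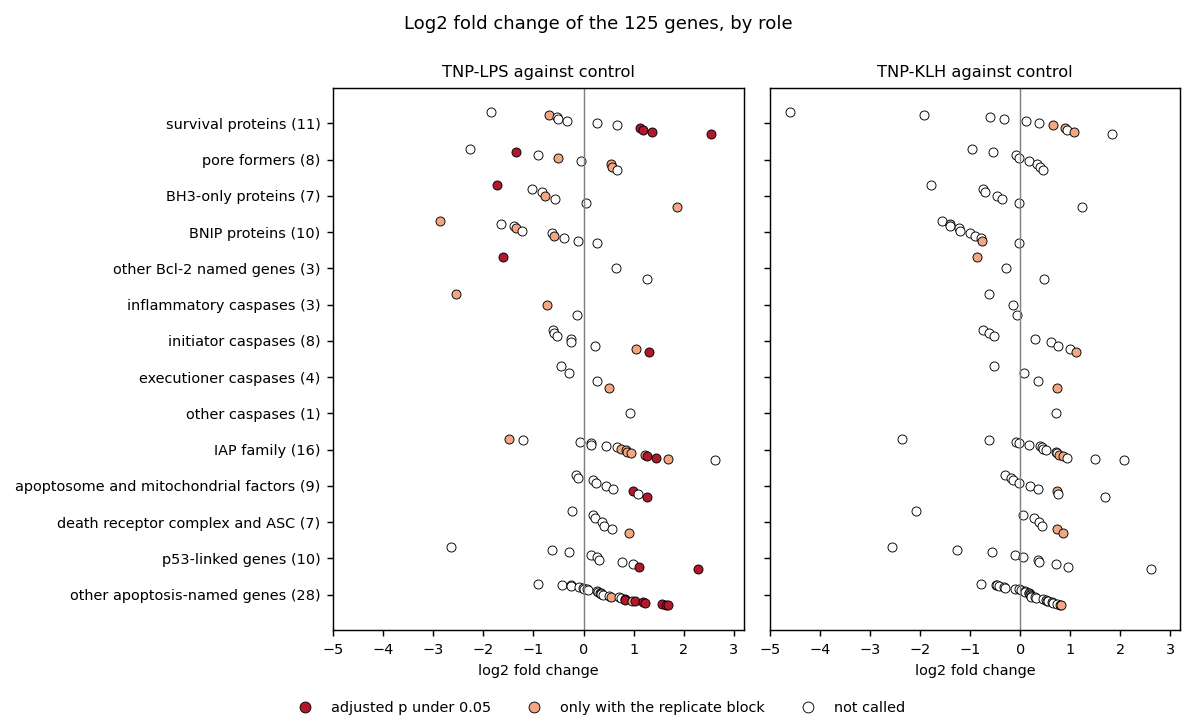
Log2 fold change of each of the 125 genes (horizontal axis) by role (vertical axis, number of genes in brackets), in one panel for each antigen against control, with filled points for genes past the threshold and pale points for those past it only with the replicate block. In the TNP-LPS panel the 19 genes that rose lie to the right among survival proteins, initiator caspases, the IAP family, mitochondrial, p53-linked and other genes, the 3 that fell lie to the left, among the pore formers, the BH3-only proteins and the other Bcl-2 named genes, and the TNP-KLH panel holds no filled point.

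Of the 39 Bcl-2 family genes 4 rose and 3 fell with TNP-LPS (10.3% and 7.69%, beside 10.04% and 6.73% of all genes). A negative log2 fold change was seen in 25 of them and in 17213 of all 31691 genes, while 45.6% of all genes had a positive one. Of these 25, 9 were among the 10 BNIP genes described below. With the block 7 of the 39 were higher and 9 lower (17.9% and 23.1%, beside 16.3% and 14.2% of all genes). All 4 rises lay among the 11 survival genes, of which none fell without the block and 6 had a positive log2 fold change. The Mcl-1-like gene GSONMG00052810001 codes for a short-lived guardian of the mitochondrion on which many lymphocytes depend. Its level was 614, 1181 and 726 CPM in the control libraries, 1434, 1949 and 1296 CPM with TNP-KLH and 1749, 2169 and 1576 CPM with TNP-LPS. Every antigen library lay above every control library. The log2 fold change was 1.12 ± 0.28 with TNP-LPS (adjusted p by edgeR = 0.0224) and 0.89 ± 0.28 with TNP-KLH (adjusted p = 0.2, and 0.00594 with the block). Without control 1, control 3 or TNP-LPS 2 the adjusted p for TNP-LPS lay between 0.0733 and 0.0846.

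A second gene described as Mcl-1 homolog, GSONMG00063150001, took another course. It stood at 516, 1324 and 1112 CPM in control libraries, 684, 1508 and 1015 CPM with TNP-KLH and 437, 842 and 559 CPM with TNP-LPS. Within each replicate number the TNP-LPS library was the lowest, while the groups overlapped across numbers. With TNP-LPS the log2 fold change was -0.68 ± 0.41 without the block (adjusted p by edgeR = 0.306) and -0.63 with it (adjusted p = 0.0202), where leaving out single libraries kept the call in 5 of 9 fits and gave an adjusted p of up to 0.151 without control 3. In the direct comparison the block called it lower with TNP-LPS (-0.78 on the log2 scale, adjusted p = 0.012, in 7 of 9 leave-one-out fits). The log2 ratio of the Mcl-1-like to the Mcl-1 homolog level in a library, a pair chosen after its values were seen, averaged -0.18 ± 0.43 (SD, n = 3) in controls, 0.60 ± 0.41 with TNP-KLH and 1.62 ± 0.34 with TNP-LPS. Both antigen groups lay wholly above the controls in this ratio (two-sided exact permutation test, p = 0.1 for each antigen, the smallest that 3 against 3 allows).

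Bcl-2-like protein 2 is the name of Bcl-w, another survival protein. The gene GSONMG00052850001 measured 504, 334 and 279 CPM in control, 727, 513 and 518 CPM in TNP-KLH and 1216, 730.5 and 600.2 CPM in TNP-LPS libraries. Number 1 was the highest of every group, and each TNP-LPS library exceeded all controls. With TNP-LPS it rose by 1.19 ± 0.32 on the log2 scale (adjusted p by edgeR = 0.0321); the value with TNP-KLH was 0.65 ± 0.32 (adjusted p = 0.45, and 0.0247 with the block, in 5 of 9 leave-one-out fits). The TNP-LPS call was lost without control 2, control 3, TNP-LPS 1 or TNP-LPS 2 (adjusted p 0.0587 to 0.0977).

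NR13 is a Bcl-2 relative that blocks apoptosis in birds. The NR13-like gene GSONMG00052213001 had 15.9, 19.7 and 44.7 CPM in the controls, 35.99, 62.2 and 70.6 CPM with TNP-KLH and 55.1, 73.5 and 79.2 CPM with TNP-LPS. Control 3 exceeded TNP-KLH 1, so that groups separated fully only for TNP-LPS, and within every number the order was control, TNP-KLH, TNP-LPS. TNP-LPS gave a log2 fold change of 1.37 ± 0.40 (adjusted p by edgeR = 0.0439, and 5e-05 with the block) and 1.07 ± 0.40 with TNP-KLH (adjusted p = 0.295, and 0.00266 with the block). Without the block the TNP-LPS call was lost on leaving out control 1, control 2, TNP-KLH 2 or each TNP-LPS library in turn (adjusted p 0.0576 to 0.118), and without control 3 the log2 fold change was 1.96.

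Bcl-2-like protein 1, the name of Bcl-xL, was carried by 4 genes. Only GSONMG00006401001 passed the test, at 1.21, 1.67 and 1.400 CPM in control, 2.18, 4.91 and 1.09 CPM in TNP-KLH and 6.83, 14.5 and 3.899 CPM in TNP-LPS libraries. All controls were under 2 CPM and TNP-LPS 2 was the highest library. Its log2 fold change of 2.55 ± 0.62 (SE) was the largest among the genes called (adjusted p by edgeR = 0.0194), and the adjusted p lay between 0.0584 and 0.0867 without control 1, control 3 or TNP-LPS 2, the last with a log2 fold change of 1.89. Against TNP-KLH it was higher by 1.62 with the block (adjusted p = 0.00539; 0.212 without). The Bcl-xL copy with the highest counts, GSONMG00065354001, had 8.495, 7.94 and 8.95 CPM in controls, 5.56, 4.91 and 6.32 CPM with TNP-KLH and 6.21, 5.703 and 5.85 CPM with TNP-LPS, all antigen libraries lying under the controls at a log2 fold change of -0.52 ± 0.22 for TNP-LPS (adjusted p = 0.152). Over the 9 libraries the 4 Bcl-xL copies correlated pairwise between -0.73 and 0.23, a description that shares libraries and depth.

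The Bcl-2 name itself was held by 3 genes, of which GSONMG00079665001 alone was above 1 CPM. Its controls were nearly level at 34.8, 34.7 and 34.1 CPM, against 44.8, 61.7 and 28.02 CPM with TNP-KLH and 39.3, 64.00 and 22.5 CPM with TNP-LPS. The numbers diverged: the antigen libraries numbered 2 lay above the controls and those numbered 3 below. With TNP-LPS it changed by 0.28 ± 0.38 on the log2 scale and was not called (adjusted p by edgeR = 0.684).

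**Figure D2:**
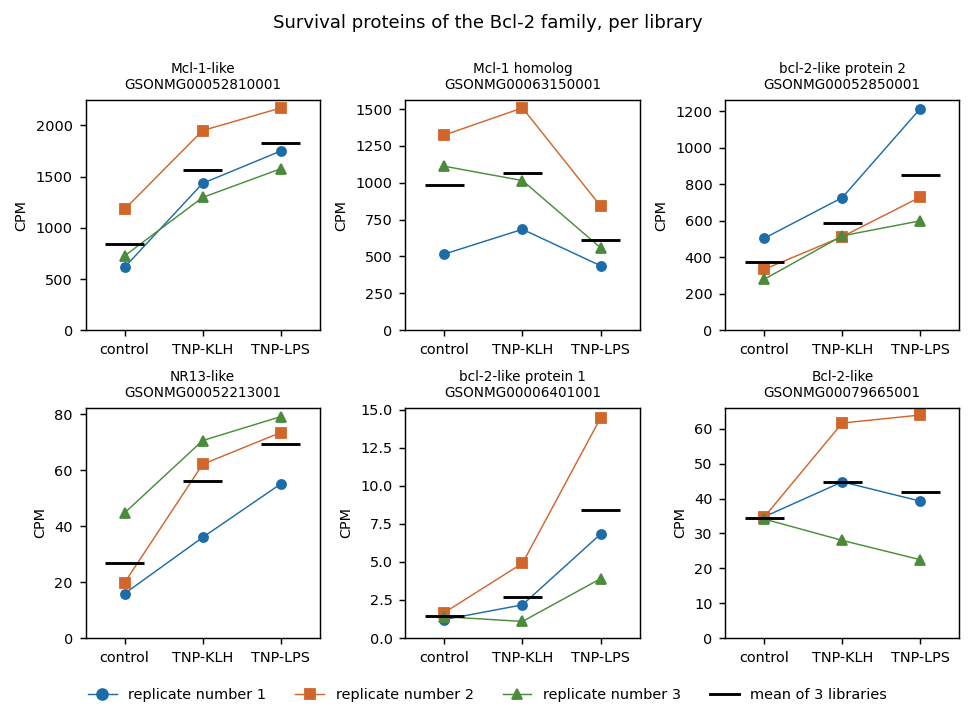
CPM (vertical axes, from 0) of 6 survival genes in control, TNP-KLH and TNP-LPS libraries (horizontal axes), with lines joining libraries of the same replicate number and black bars for means of 3. The Mcl-1-like, bcl-2-like protein 2 and NR13-like lines climb from control to TNP-LPS in all 3 numbers, and the Mcl-1 homolog lines end at their lowest point with TNP-LPS.

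Of the 8 pore formers, 1 fell with TNP-LPS and none rose (6.73% and 10.04% of all genes). BAX, the protein that perforates the outer mitochondrial membrane, was named by 7 of them, and these did not move as a group. GSONMG00041262001 fell, from 24.6, 26.8 and 31.9 CPM in controls over 15.05, 19.4 and 22.3 CPM with TNP-KLH to 6.37, 13.8 and 12.3 CPM with TNP-LPS. Neither antigen group overlapped with the controls. On the log2 scale the difference was -1.35 ± 0.29 with TNP-LPS (adjusted p by edgeR = 0.0113), a call kept in 9 of 9 leave-one-out fits although not without the libraries numbered 2 (adjusted p = 0.0697), and -0.55 ± 0.29 with TNP-KLH (adjusted p = 0.487). Against TNP-KLH the block called it lower with TNP-LPS (-0.82, adjusted p = 0.0124, in 5 of 9 leave-one-out fits).

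Another BAX-like gene, GSONMG00057174001, stood at 14.3, 16.6 and 8.17 CPM in controls, 17.3, 16.5 and 15.5 CPM with TNP-KLH and 21.7, 20.7 and 15.5 CPM with TNP-LPS. Its TNP-LPS libraries were the highest within numbers 1 and 2, and the adjusted p of its log2 fold change of 0.57 ± 0.27 (SE) was 0.2 (edgeR), or 0.0359 with the block. The log2 ratio of this copy to the one that fell, chosen after the values were seen, averaged -1.15 ± 0.71 (SD, n = 3) in controls, -0.19 ± 0.37 with TNP-KLH and 0.90 ± 0.77 with TNP-LPS, and did not overlap between TNP-LPS and control (two-sided exact permutation test, p = 0.1, the smallest possible). With the block, BAX-like isoform X2 (GSONMG00070377001) was higher with TNP-LPS at 0.55 (adjusted p = 0.0323) and isoform X3 (GSONMG00024796001) lower at -0.49 (adjusted p = 0.0389). These block calls were fragile: they held in 4 leave-one-out fits of 9 for each higher copy and in 1 of 9 for isoform X3. The BOK gene, bcl-2-related ovarian killer GSONMG00059374001, lay between 0 and 1.46 CPM in all libraries and passed no test.

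The 7 BH3-only genes gave 1 fall and no rise with TNP-LPS (6.73% and 10.04% of all genes). BAD is a BH3-only protein that neutralises Bcl-2 and Bcl-xL and is switched off by Akt. A BAD-like gene, isoform X2 GSONMG00069547001, had 5.97, 6.58 and 8.87 CPM in controls, 3.82, 5.82 and 3.05 CPM with TNP-KLH and 2.17, 1.69 and 2.599 CPM with TNP-LPS, the 3 TNP-LPS libraries lying below all others. It fell by 1.72 on the log2 scale with TNP-LPS (SE 0.35; adjusted p by edgeR = 0.00815), in all leave-one-out fits, with an adjusted p of 0.0532 without the libraries numbered 2. A second BAD-like gene, GSONMG00069396001, had 10.1, 12.5 and 17.1 CPM in controls, 5.02, 10.01 and 9.27 CPM with TNP-KLH and 1.55, 12.04 and 9.56 CPM with TNP-LPS. TNP-LPS 1 was its lowest library, and only the block called it lower (adjusted p = 0.0389 against 0.421 without it), in 3 of 9 leave-one-out fits and with an adjusted p of up to 0.191.

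BIM, named bcl-2-like protein 11, is the BH3-only protein that removes autoreactive and spent lymphocytes in mammals. GSONMG00060193001 was at 1.72, 2.09 and 1.17 CPM in controls, 6.54, 3.91 and 1.31 CPM with TNP-KLH and 9.63, 6.13 and 2.599 CPM with TNP-LPS. The TNP-LPS libraries were above all controls, with number 3 nearest to them. TNP-LPS against control gave 1.87 ± 0.63 on the log2 scale (adjusted p by edgeR = 0.0716) and 1.73 with the block (adjusted p = 0.00185), which held in 9 of 9 leave-one-out fits. Of the 7 BH3-only genes 2 had a positive log2 fold change with TNP-LPS, this gene and the BMF gene described next. The other gene named bcl-2-like protein 11 thus had a negative one, and neither edgeR fit called it. The BMF gene GSONMG00025522001, whose protein senses detachment and cytoskeletal stress, ranged from 5.02 to 28.9 CPM with the controls spanning the whole range. The TNP-LPS difference was 0.04 ± 0.60 on the log2 scale (adjusted p = 0.976).

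BNIP proteins are named for their interaction with Bcl-2 and an adenoviral protein, and BNIP3 and its relative BNIP3L label mitochondria for autophagy. None of the 10 passed the test without the block, and 3 were lower with TNP-LPS with it (14.2% of all genes). A negative log2 fold change was seen in 9 of 10 with TNP-LPS and in 10 of 10 with TNP-KLH. Of all genes, 45.6% and 47.4% had a positive one. The BNIP3-like gene GSONMG00059781001 stood at 12.7, 16.6 and 23.1 CPM in controls, 4.36, 6.098 and 9.27 CPM with TNP-KLH and 3.88, 4.75 and 11.8 CPM with TNP-LPS. Each antigen library was below all controls. The log2 fold change was -1.35 ± 0.45 with TNP-LPS and -1.41 ± 0.45 with TNP-KLH (adjusted p by edgeR = 0.0701 and 0.205), and with the block the adjusted p was 0.000145 and 0.000966. BNIP3 (GSONMG00082530001) showed 26.9, 33.02 and 24.7 CPM, 17.2, 14.7 and 18.1 CPM and 20.7, 14.7 and 21.3 CPM in the 3 groups in the same order, again without overlap with the controls. It was called lower with both antigens only by the block (adjusted p = 0.0335 for TNP-LPS and 0.0218 for TNP-KLH), and leaving out single libraries kept these calls in 2 and 4 of 9 fits.

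Of the remaining Bcl-2 named genes, bcl-2-like protein 12 (GSONMG00005737001), a nuclear and cytoplasmic relative, fell. Its levels were 11.02, 11.1 and 11.8 CPM in controls, 4.14, 7.92 and 6.54 CPM with TNP-KLH and 3.42, 4.33 and 3.34 CPM with TNP-LPS. Controls varied by under 1 CPM and lay above every antigen library. Its change was -1.61 ± 0.28 on the log2 scale with TNP-LPS (adjusted p by edgeR = 0.00398, kept in all leave-one-out fits and at 0.033 without the libraries numbered 2) and -0.86 ± 0.27 with TNP-KLH (adjusted p = 0.204, and 0.0326 with the block, in 4 of 9 leave-one-out fits).

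**Figure D3:**
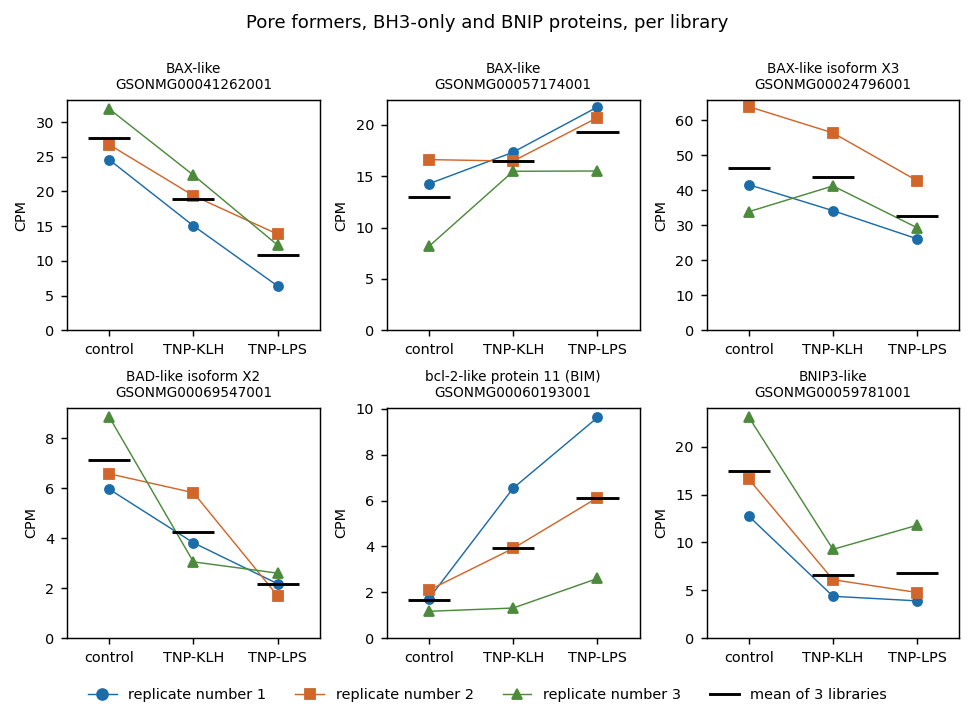
CPM (vertical axes, from 0) of 3 BAX-like genes, a BAD-like gene, BIM and a BNIP3-like gene in control, TNP-KLH and TNP-LPS libraries, with lines joining libraries of the same replicate number and black bars for means of 3. The first BAX-like and the BAD-like gene descend to the TNP-LPS libraries, and the BNIP3-like gene is low with both antigens.

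Among the 16 caspases 1 rose with TNP-LPS and none fell, and with the block 3 were higher and 2 lower. These are 6.25% higher, and with the block 18.8% and 12.5%, beside 10.04%, 16.3% and 14.2% of all genes. Caspase-8 is the initiator of the receptor route and also restrains necroptosis. The caspase-8-like gene GSONMG00008032001 measured 14.3, 11.9 and 18.2 CPM in controls, 23.3, 37.1 and 35.97 CPM with TNP-KLH and 38.04, 41.6 and 30.3 CPM with TNP-LPS. All 6 antigen libraries were above all controls. With TNP-LPS its rise was 1.31 ± 0.25 on the log2 scale (adjusted p by edgeR = 0.00651; 9 of 9 leave-one-out fits, and 0.0905 without the libraries numbered 2), and the value with TNP-KLH was 1.12 ± 0.25 (adjusted p = 0.0764, and 0.00392 with the block).

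In the other 4 caspase-8-like genes the levels differed more between replicate numbers than between antigen groups. GSONMG00049875001 stood at 41.3, 48.3 and 3.27 CPM in controls, 37.1, 73.5 and 2.83 CPM with TNP-KLH and 20.2, 41.5 and 2.599 CPM with TNP-LPS, all 3 libraries numbered 3 being far below the rest. Its neighbour in identifier, GSONMG00049876001, showed the same low number 3, with 12.3, 11.3 and 1.48 CPM, 14.5, 22.7 and 1.199 CPM and 4.19, 11.5 and 0.928 CPM in the 3 groups, and correlated with it at r = 0.98 over the 9 libraries. In the direct comparison the block called both lower with TNP-LPS, GSONMG00049875001 by -0.70 (adjusted p = 0.0371) and GSONMG00049876001 by -1.13 (adjusted p = 0.0219), each in 6 of 9 leave-one-out fits. Reads shared between such copies are not resolved by these counts. Over the 9 libraries the first correlated at r = 0.83 and the second at r = 0.79 with summed hemoglobin, a marker of erythrocytes. The summed T cell markers were also lowest in number 3 of each group, at 3.66, 2.398 and 3.25 CPM in control, TNP-KLH and TNP-LPS. The part of other cells in the values of these copies was not tested. GSONMG00042008001 was instead low in number 1, at 5.16, 14.8 and 13.6 CPM in controls, 4.47, 41.3 and 21.4 CPM with TNP-KLH and 4.503, 39.1 and 25.8 CPM with TNP-LPS, and only the block called it higher with TNP-LPS (adjusted p by edgeR = 0.0298 against 0.45, in 5 of 9 leave-one-out fits). Isoform X1 (GSONMG00008892001) was highest in number 1 of each group, at 7.28, 1.15 and 0.0778 CPM, 9.597, 3.64 and 0.981 CPM and 7.76, 2.11 and 0.279 CPM.

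As a share of each gene's variance over the 9 libraries on a log2 scale, the replicate number took 96.4%, 87.4% and 85.4% for GSONMG00049875001, GSONMG00049876001 and GSONMG00042008001, and the antigen condition took 2.21%, 7.51% and 7.32%. For the caspase-8-like gene that rose, GSONMG00008032001, the condition took 83.8% and the number 2.24%. The medians were 46.3% by number and 20.4% by condition over the 16 caspases, against 26.3% and 47.3% over the 39 Bcl-2 family genes and 28.4% and 33.4% over all genes kept. These shares are given as a description, with 1 library for each condition and number.

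Caspase-1 processes interleukin-1β in inflammasomes and stands apart from the apoptotic caspases. The caspase-1-like gene GSONMG00008865001 spanned a wide range, 7.48, 263 and 32.7 CPM in controls, 7.198, 152 and 35.6 CPM with TNP-KLH and 3.57, 27.4 and 20.8 CPM with TNP-LPS. Number 2 was the highest of each group. In the TNP-LPS comparison the log2 fold change was -2.54 ± 1.34 (adjusted p by edgeR = 0.246) and -1.74 with the block (adjusted p = 0.00157; -0.76 and 0.00534 with the block and without the libraries numbered 2). Leaving out single libraries kept this block call in every fit, with a log2 fold change of -1.12 without control 2, -0.96 without TNP-LPS 2 and -2.41 without TNP-LPS 3. Against TNP-KLH the block called the gene lower with TNP-LPS at -1.40 (adjusted p = 0.0152), which was -0.68 without TNP-LPS 2 and -2.11 without TNP-LPS 3, and held in 7 of 9 leave-one-out fits. Hemoglobin genes, which mark erythrocytes, were also highest in number 2: their 19 genes summed to 93.3 to 6781 CPM in controls, 38.2 to 2338 CPM with TNP-KLH and 29.0 to 386 CPM with TNP-LPS. All 19 were called lower with TNP-LPS in the block fit and 0 without the block (14.2% and 6.73% of all genes). In number 1 the sum was nearly level, at 251 CPM in control and 242 CPM with TNP-LPS. None of the 19 was at 0 in a group, and their part in the caspase-1-like values beyond the fit without number 2 was not tested. The other caspase-1-like gene, GSONMG00039688001, had 27.3, 35.7 and 19.1 CPM in controls, 23.99, 26.5 and 23.3 CPM with TNP-KLH and 17.4, 16.9 and 15.5 CPM with TNP-LPS, the TNP-LPS libraries lying below all others (adjusted p by edgeR = 0.0636, and 0.0113 with the block). Its block call held in 8 of 9 leave-one-out fits, and was lost without control 2 (adjusted p = 0.0719) and without the libraries numbered 2 (0.0758). It correlated with summed hemoglobin at r = 0.69 over the 9 libraries, and the part of erythrocytes in its values was not tested.

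Caspase-9 and the executioners did not pass the test. Caspase-9 (GSONMG00062794001), the apoptosome's protease, lay at 24.4, 27.8 and 25.6 CPM in controls, 19.6, 14.7 and 19.5 CPM with TNP-KLH and 30.3, 14.9 and 20.1 CPM with TNP-LPS. TNP-LPS 1 was above and the other antigen libraries were below all controls. Among the executioners, caspase-7 (GSONMG00078563001) had 21.04, 8.26 and 15.9 CPM in controls, 27.3, 21.1 and 27.4 CPM with TNP-KLH and 18.8, 17.8 and 18.2 CPM with TNP-LPS. The TNP-KLH libraries were the highest within each number, and with the block the gene was higher with TNP-KLH at 0.79 (adjusted p by edgeR = 0.0293; 0.338 without it), though in only 5 of 9 leave-one-out fits. The caspase-3-like gene GSONMG00070615001 stood at 21.2, 10.2 and 18.98 CPM in controls, 23.4, 16.7 and 24.96 CPM with TNP-KLH and 33.5, 17.2 and 21.6 CPM with TNP-LPS, overlapping between groups. Its log2 fold change with TNP-LPS was 0.52 ± 0.33 (adjusted p = 0.347, and 0.0497 with the block, in 1 of 9 leave-one-out fits). Caspase-2, a stress-linked initiator, had 2 genes that ranged from 1.53 to 12.4 CPM with log2 fold changes of -0.25 and -0.61 for TNP-LPS, neither called. A partial caspase-14-like gene, GSONMG00055810001, was detected mainly in number 1, at 3.54, 6.33 and 8.07 CPM in control, TNP-KLH and TNP-LPS, and at most 1.18 CPM elsewhere.

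**Figure D4:**
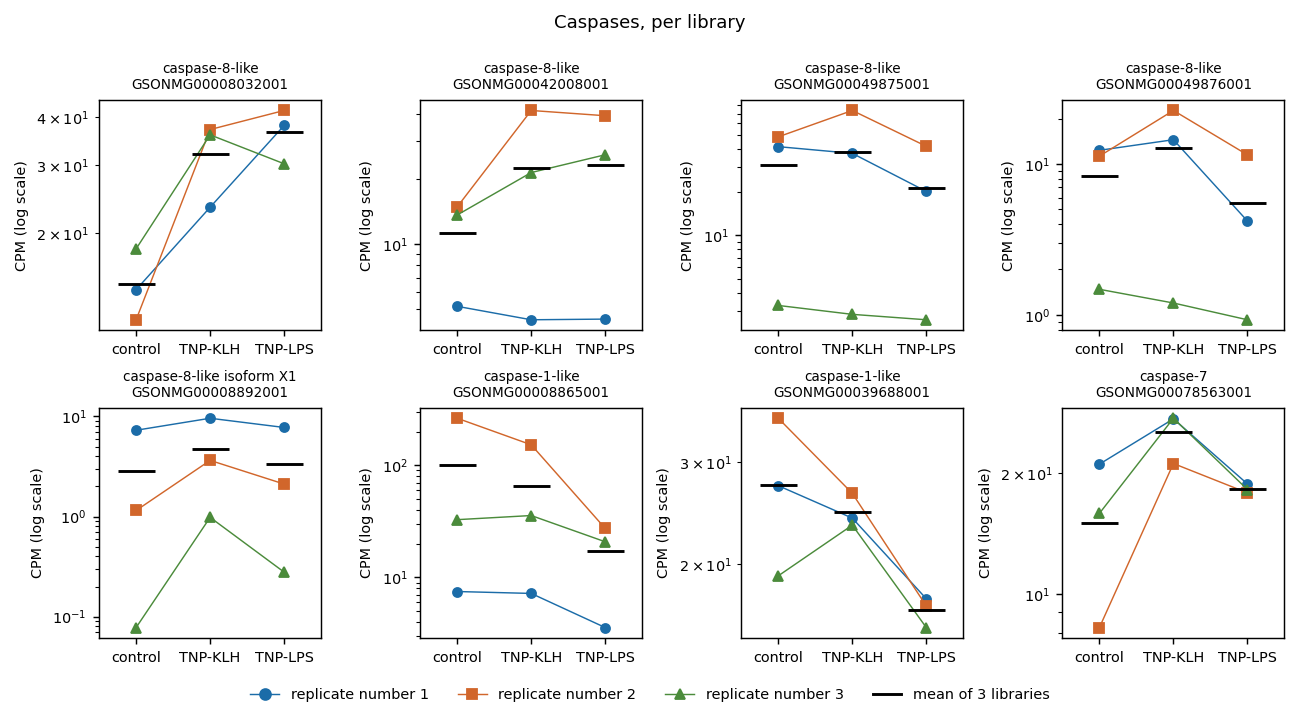
CPM on log scales (vertical axes) of 5 caspase-8-like genes, 2 caspase-1-like genes and caspase-7 in control, TNP-KLH and TNP-LPS libraries, with lines joining libraries of the same replicate number and black bars for means of 3. The lines of GSONMG00008032001 all climb from control, while each of the other 4 caspase-8-like genes keeps the same lowest replicate number in every condition, number 3 in 3 of them.

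In the IAP family, 2 of 16 genes rose with TNP-LPS and none fell (10.04% and 6.73% of all genes). A positive log2 fold change was seen in 13 of 16 (45.6% of all genes), and with the block 8 were higher and 1 lower (16.3% and 14.2% of all genes). An XIAP-like gene outside the description rule fell with TNP-LPS and is counted with the death adaptors below. BIRC2, or cIAP1, is a ubiquitin ligase that acts in RIPK1 and NF-κB signalling and blocks caspase-8 activation. The BIRC2-like gene GSONMG00035912001 had 50.1, 55.6 and 36.95 CPM in controls, 80.3, 101 and 64.8 CPM with TNP-KLH and 115, 123 and 106 CPM with TNP-LPS. The 3 groups did not overlap, with TNP-KLH between the others. It rose by a log2 fold change of 1.27 ± 0.24 with TNP-LPS (adjusted p by edgeR = 0.00539, kept in all leave-one-out fits), and the value with TNP-KLH was 0.78 ± 0.24 (adjusted p = 0.18, and 0.00669 with the block). Its copies GSONMG00056467001 and GSONMG00056876001 had log2 fold changes of 0.94 ± 0.30 and 0.84 ± 0.31 with TNP-LPS, called only with the block (adjusted p = 0.000581 and 0.000551, against 0.0588 and 0.0968). The 3 copies correlated pairwise at 0.91 to 0.96 over the 9 libraries.

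A gene described only as inhibitor of apoptosis protein-like, GSONMG00031926001, stood at 19.2, 9.51 and 10.8 CPM in controls, 23.7, 26.3 and 21.6 CPM with TNP-KLH and 38.2, 40.1 and 29.5 CPM with TNP-LPS. Its 3 groups were also separate and in the same order. The log2 fold change was 1.45 ± 0.28 with TNP-LPS (adjusted p by edgeR = 0.00633; 9 of 9 leave-one-out fits, and 0.0893 without the libraries numbered 2) and 0.86 ± 0.28 with TNP-KLH (adjusted p = 0.213, and 0.0144 with the block). Its partner GSONMG00048427001 had a log2 fold change of 1.22 ± 0.41 (adjusted p = 0.0703, and 0.0115 with the block).

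BIRC6 is a giant membrane-bound IAP, and 8 genes carried its name. The one with the most counts, GSONMG00060030001, was level, at 139, 114 and 146 CPM in controls, 133, 159 and 158 CPM with TNP-KLH and 112, 155 and 174 CPM with TNP-LPS, with an adjusted p by edgeR of 0.724 for TNP-LPS. With the block 3 BIRC6-like genes were higher with TNP-LPS (16.3% of all genes). Of these 3, GSONMG00000306001 (log2 fold change 0.90, adjusted p by edgeR = 0.00546) kept the call in every leave-one-out fit. With TNP-KLH this gene was called higher only with the block (adjusted p by edgeR = 0.0442, in 3 of 9 such fits). BIRC5, survivin, serves cell division as well as caspase inhibition. GSONMG00021744001 had 10.9, 14.1 and 1.09 CPM in controls, 7.31, 9.101 and 0.327 CPM with TNP-KLH and 7.76, 1.37 and 0.557 CPM with TNP-LPS, with number 3 lowest in each group. The block called it lower with TNP-LPS (adjusted p = 0.0249, against 0.463 without it), with a log2 fold change of -1.51 that was -0.59 without TNP-LPS 2 (adjusted p = 0.248), -2.56 without TNP-LPS 1 and -0.61 without the libraries numbered 2 (adjusted p = 0.226), and hemoglobin, given above, was likewise lowest in number 3 of each group; its part in this value was not tested.

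Among the apoptosome and mitochondrial factors, 2 of 9 rose with TNP-LPS and none fell (10.04% and 6.73% of all genes). Apoptosis-inducing factor 1 (GSONMG00076387001), a mitochondrial flavoprotein that needs to leave the organelle to act on DNA, showed 66.3, 101 and 50.2 CPM in controls, 89.1, 102 and 87.3 CPM with TNP-KLH and 130.4, 151 and 148 CPM with TNP-LPS. Control 2 reached the TNP-KLH range, and the TNP-LPS libraries were above all others. The gene rose by 0.98 ± 0.26 on the log2 scale with TNP-LPS (adjusted p by edgeR = 0.029, and 0.0769 to 0.0889 without control 1, control 3, TNP-LPS 2 or TNP-LPS 3). Apoptosis-inducing factor 2 (GSONMG00064589001), an oxidoreductase related to it, had 31.8, 18.5 and 12.2 CPM, 42.97, 34.4 and 26.2 CPM and 63.8, 52.3 and 34.2 CPM in the 3 groups, within every number in the order control, TNP-KLH, TNP-LPS. It rose by 1.27 on the log2 scale with TNP-LPS (SE 0.37; adjusted p = 0.0428, and 2.57e-05 with the block), a call that among the 9 leave-one-out fits held only without control 1 or TNP-LPS 3 (adjusted p 0.0513 to 0.124 in the others). With the block it was also called higher with TNP-KLH (0.80, adjusted p = 0.0087, in 7 of 9 leave-one-out fits), and apoptosis-inducing factor 1 was called higher with TNP-LPS than TNP-KLH (0.63, adjusted p = 0.0368, in 3 of 9). The 6 genes named for APAF1, the apoptosome's scaffold, had log2 fold changes from -0.14 to 0.59 with TNP-LPS and from -0.29 to 0.76 with TNP-KLH, none called by either edgeR fit.

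Neither cFLIP nor ASC passed the test without the block. The cFLIP gene GSONMG00028952001, whose product competes with caspase-8 for FADD, had 14.3, 8.99 and 4.05 CPM in controls, 22.9, 14.3 and 12.2 CPM with TNP-KLH and 28.9, 13.5 and 8.82 CPM with TNP-LPS. Each antigen library was above the control of its number, with number 1 highest throughout. With the block its log2 fold change was 0.90 with TNP-LPS (adjusted p by edgeR = 0.00572) and 0.96 with TNP-KLH (adjusted p = 0.0118), against adjusted p-values of 0.293 and 0.567 without it. A second cFLIP gene, GSONMG00014477001, was called higher only with TNP-KLH and only with the block (adjusted p = 0.0279, in 5 of 9 leave-one-out fits), at 56.4, 39.4 and 17.7 CPM in controls, 85.4, 60.2 and 43.8 CPM with TNP-KLH and 111, 36.3 and 22.5 CPM with TNP-LPS. The 3 ASC genes, adaptors between inflammasome receptors and caspase-1, had log2 fold changes from -0.22 to 0.23 with TNP-LPS, and in one, GSONMG00081492001, the replicate number took 87.9% of the variance.

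The p53-linked genes gave 2 rises among 10 with TNP-LPS (10.04% of all genes). Both were in TRIAP1, a small mitochondrial protein induced by p53 that limits cytochrome c release. GSONMG00068328001 went from 1.82, 0.522 and 1.63 CPM in controls over 3.27, 1.73 and 2.83 CPM with TNP-KLH to 6.99, 6.13 and 6.59 CPM with TNP-LPS. The TNP-LPS libraries were close together and above all others. With TNP-LPS it rose by 2.29 ± 0.46 on the log2 scale (adjusted p by edgeR = 0.00773, kept in all leave-one-out fits), and the copy GSONMG00031792001 rose by 1.11 (SE 0.29; adjusted p = 0.0286, and 0.063 to 0.0838 on leaving out each TNP-LPS library in turn). Against TNP-KLH, GSONMG00068328001 was higher only with the block (log2 fold change 1.39, adjusted p = 0.0149, in 5 of 9 leave-one-out fits). The 4 ASPP1-like and 3 ASPP2-like genes, whose products steer p53 to apoptotic targets, passed no test.

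Of the 28 other apoptosis-named genes 8 rose with TNP-LPS and none fell (10.04% and 6.73% of all genes). The smallest adjusted p of all 125 belonged to apoptosis-enhancing nuclease, an exonuclease that p53 induces in mammals. GSONMG00081668001 stood at 21.6, 20.4 and 17.2 CPM in controls, 39.7, 35.5 and 28.1 CPM with TNP-KLH and 81.4, 61.8 and 47.3 CPM with TNP-LPS. The groups were separate, TNP-KLH lying between the others. Its log2 fold change was 1.68 ± 0.25 with TNP-LPS (adjusted p by edgeR = 0.00149) and 0.80 ± 0.24 with TNP-KLH (adjusted p = 0.181, and 0.00602 with the block). Against TNP-KLH the value was 0.88 ± 0.24 (adjusted p = 0.0895, and 0.00197 with the block, in 9 of 9 leave-one-out fits). The second nuclease gene, GSONMG00006930001, also rose with TNP-LPS, by 1.65 (SE 0.30; adjusted p = 0.00478), and both kept the call in every leave-one-out fit and without the libraries numbered 2. With the block GSONMG00006930001 was called higher with TNP-KLH than in controls (0.77, adjusted p = 0.0123, in 8 of 9 leave-one-out fits) and higher with TNP-LPS in the direct comparison (0.84, adjusted p = 0.00368, in 7 of 9).

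Apoptosis inhibitor 5, a nuclear survival factor, rose in all 3 of its genes with TNP-LPS. GSONMG00039003001 measured 18.00, 9.72 and 18.7 CPM in controls, 27.05, 18.8 and 26.5 CPM with TNP-KLH and 52.9, 33.9 and 50.1 CPM with TNP-LPS. Number 2 was the lowest of each group, and every TNP-LPS library was above all others. Its log2 fold change was 1.56 ± 0.30 (adjusted p by edgeR = 0.00607, in 9 of 9 leave-one-out fits). For GSONMG00056263001 and GSONMG00081655001 it was 0.82 ± 0.21 and 1.03 ± 0.29 (adjusted p = 0.0249 and 0.0354); the first lost its call on leaving out each control in turn or TNP-LPS 1 (0.0514 to 0.0719) and the second without control 2, control 3, TNP-KLH 2, TNP-LPS 1 or TNP-LPS 3 (0.0524 to 0.106). In the direct comparison the block called all 3 higher for TNP-LPS (adjusted p = 0.00165, 0.0315 and 0.0113), in 9, 2 and 4 of 9 leave-one-out fits. With TNP-KLH it called GSONMG00039003001 higher than in controls (0.67, adjusted p = 0.0202, in 6 of 9).

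CCAR1, a coactivator for p53 and cell cycle genes, was named by 7 genes. GSONMG00026104001 had 36.5, 24.7 and 39.1 CPM in controls, 51.5, 40.8 and 52.4 CPM with TNP-KLH and 73.4, 78.1 and 78.4 CPM with TNP-LPS, again in 3 separate groups. It rose by a log2 fold change of 1.20 ± 0.22 (adjusted p by edgeR = 0.00516, in 9 of 9 leave-one-out fits), and GSONMG00041792001 by 0.84 ± 0.25 (adjusted p = 0.0435), which held only without control 3 or TNP-LPS 1 (0.0534 to 0.153 otherwise). Against TNP-KLH the block called GSONMG00026104001 higher (0.69, adjusted p = 0.0139, in 5 of 9 leave-one-out fits). For GSONMG00070168001 the value was 0.96 ± 0.29 (adjusted p = 0.0502, and 0.00124 with the block). The 4 genes with consecutive identifiers from GSONMG00055965001 to GSONMG00055968001 had log2 fold changes from -0.08 to 0.33 and were not called.

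Siva is a proapoptotic protein that binds TNF receptor family members, and its 2 genes differed. GSONMG00074355001 rose, with 6.78, 8.05 and 6.15 CPM in controls, 7.42, 10.1 and 6.65 CPM with TNP-KLH and 20.2, 17.8 and 11.05 CPM with TNP-LPS. Only TNP-LPS stood apart from the controls. On the log2 scale it changed by 1.22 ± 0.28 with TNP-LPS (adjusted p by edgeR = 0.0153, and 0.0505 to 0.0558 without control 3, TNP-LPS 1 or TNP-LPS 2), while isoform X1, GSONMG00034909001, had -0.44 ± 0.28 (adjusted p = 0.337). The log2 ratio of the first to the second, a pair chosen after its values were seen, was 0.35 ± 0.36 (SD, n = 3) in controls, 1.02 ± 0.50 with TNP-KLH and 1.97 ± 0.55 with TNP-LPS. TNP-LPS did not overlap with the controls (two-sided exact permutation test, p = 0.1, the smallest possible) and TNP-KLH did (p = 0.3, same exact test). Against TNP-KLH the block called GSONMG00074355001 higher with TNP-LPS (1.00, adjusted p = 0.00614, in 7 of 9 leave-one-out fits). The 6 genes for acinus, the apoptotic chromatin condensation inducer, included 1 called, GSONMG00055536001. It was higher with TNP-LPS only with the block (log2 fold change 0.55, adjusted p by edgeR = 0.0185), where 16.3% of all genes were.

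**Figure D5:**
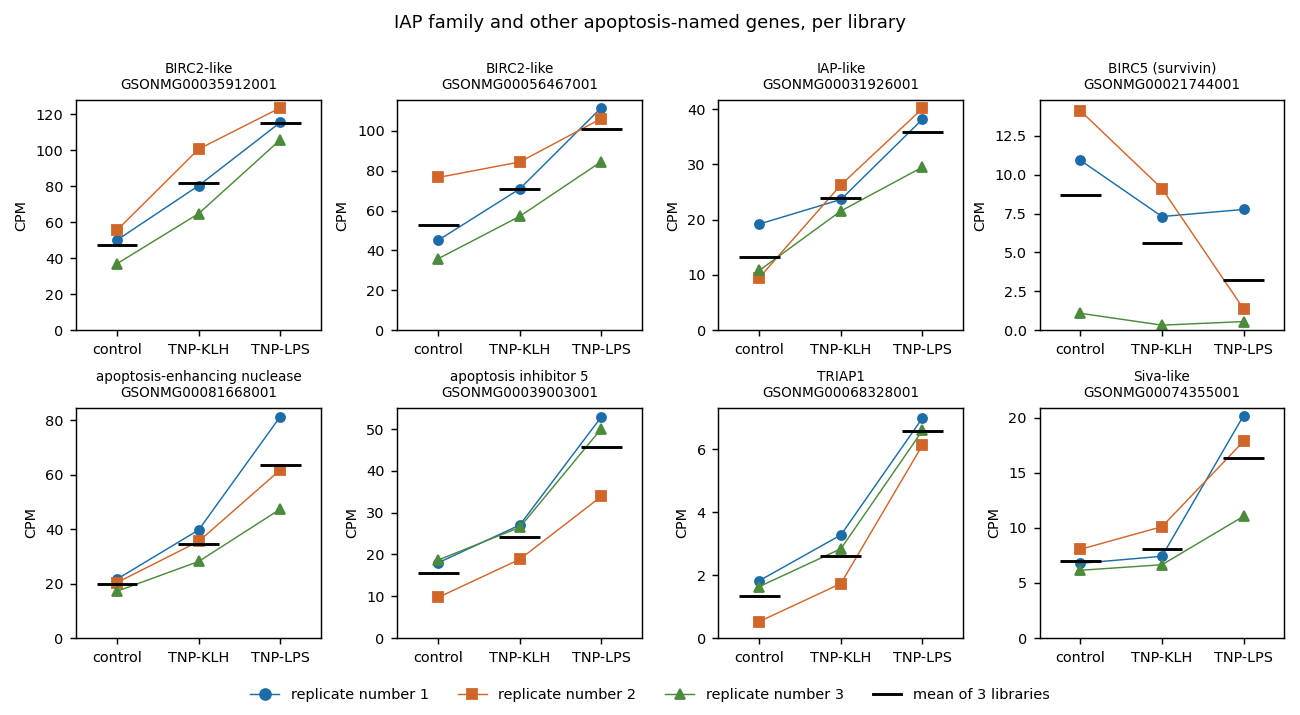
CPM (vertical axes, from 0) of 4 IAP family genes, apoptosis-enhancing nuclease, apoptosis inhibitor 5, TRIAP1 and Siva in control, TNP-KLH and TNP-LPS libraries, with lines joining libraries of the same replicate number and black bars for means of 3. For GSONMG00035912001, GSONMG00031926001 and GSONMG00081668001 the TNP-KLH libraries lie between the control and the TNP-LPS libraries, and in survivin number 3 is the lowest library of every group.

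Across copies, 102 of the 125 genes shared a description with at least 1 other, in 28 descriptions. Trout carry many such pairs from the salmonid genome duplication, and reads that fit near-identical copies equally well are not resolved. The 183 pairs correlated over the 9 libraries between -0.79 and 0.98, with a median of 0.34. Both members of a pair were called with TNP-LPS in 6 pairs, in opposite directions in 0, and with the block in 27 pairs, in opposite directions in 4. A gene with many copies enters many pairs, so the pairs are not independent. The share of such pairs over all genes was not computed, so these counts have no background.

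Death genes outside the description rule were read from lists of 115 genes, of which 18 rose and 17 fell with TNP-LPS, beside 10.04% and 6.73% of all genes. Necroptosis is the lytic death that RIPK1 and RIPK3 drive through MLKL when caspase-8 is inactive. In the list of death adaptors and necroptosis kinases 7 of 17 fell and none rose, where 6.73% and 10.04% of all genes did. The MLKL-like gene GSONMG00034079001 averaged 217 CPM in controls, 116 CPM with TNP-KLH and 54.6 CPM with TNP-LPS, at a log2 fold change of -1.99 for TNP-LPS (adjusted p by edgeR = 0.000278), and was lower than with TNP-KLH as well (adjusted p = 0.0281). A second MLKL-like gene, 2 RIPK1-like genes, 2 RIPK3-like genes and 1 XIAP-like gene made up the other falls, with log2 fold changes from -2.17 to -0.79. Of these the RIPK1-like GSONMG00028661001 also passed the direct comparison (adjusted p by edgeR = 0.0284). The XIAP-like gene is named for an IAP, although it was counted in this list.

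In the list of mitochondrial release factors 8 of 19 rose and none fell, where 10.04% and 6.73% of all genes did. Cytochrome c, the electron carrier whose release starts the apoptosome, rose in GSONMG00008900001 from a mean of 21.9 CPM to 70.2 CPM with TNP-LPS (log2 fold change 1.68, adjusted p by edgeR = 0.00275). In the p53 list 5 of 27 rose and 5 fell, with the same shares of all genes. The 4 rises with a p53 description had log2 fold changes from 0.83 to 1.64, and the sestrins split, GSONMG00046217001 (sestrin-2-like) rising by 2.45 and GSONMG00049457001 (sestrin-1-like) falling to -3.38 on the log2 scale. Of 16 death ligands and receptors 1 rose and 1 fell, where 10.04% and 6.73% of all genes did. The rise was in a TNF-like gene (GSONMG00010221001, log2 fold change 3.35, adjusted p by edgeR = 0.00143). The fall was in the Fas-type receptor GSONMG00082555001 (-0.95, adjusted p by edgeR = 0.0142). With TNP-KLH none of the 115 passed, 16 having an unadjusted p under 0.05 (12.6% of all genes), and with the block 14 were higher and 11 lower (6.05% and 4.23% of all genes).

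The cell label was checked against markers. Genes described as CD79 chains, CD22, BLNK, COE1 or immunoglobulin mu, 40 in all, summed to 3438 to 4071 CPM in controls, 2807 to 3075 CPM with TNP-KLH and 2045 to 2418 CPM with TNP-LPS, and 6 of them fell with TNP-LPS. T cell markers (8 genes) summed to 3.66 to 76.2 CPM in controls, 2.398 to 69.4 CPM with TNP-KLH and 3.25 to 17.7 CPM with TNP-LPS. Monocyte markers (16 genes) summed to 41.9 to 93.7 CPM over all libraries. The largest part was 1 macrophage mannose receptor 1-like gene (GSONMG00021955001), at 24.6 to 46.2 CPM. Macrophage-expressed gene 1 (GSONMG00055802001) had 11.5, 24.7 and 0.933 CPM in controls and 6.06, 0.528 and 0.0928 CPM with TNP-LPS, lower within every number. With the block, 1 of the 16 was called lower with TNP-LPS and 0 higher. Neutrophil markers (5 genes) summed to 74.1 to 94.4 CPM in controls, 162 to 204 CPM with TNP-KLH and 83.5 to 111 CPM with TNP-LPS, so that TNP-KLH lay wholly above the controls. Most of that sum was 1 gene, neutrophil cytosol factor 2-like (GSONMG00073143001), at 54.1 to 68.5 CPM in controls and 124 to 191 CPM with TNP-KLH. With TNP-KLH 1 of the 5 was called higher in both edgeR fits, and 1 was called lower with the block. The granulocyte colony-stimulating factor receptor gene (GSONMG00047802001) had 18.5, 8.57 and 2.49 CPM in controls and 7.42, 2.28 and 0.545 CPM with TNP-KLH. Thrombocyte markers (8 genes) ran from 45.7 to 211 CPM in controls and 21.9 to 28.3 CPM with TNP-LPS, where 4 fell. The B cell sums did not overlap between the groups, although the median log2 fold change of the 40 genes was 0.12 with TNP-KLH and -0.53 with TNP-LPS. Single B cell markers differed with TNP-KLH. The CD79 alpha chain gene GSONMG00053375001 had 479, 642 and 652 CPM in controls and 236, 423 and 346 CPM with TNP-KLH. The CD22-like gene GSONMG00037077001 had 52.3, 70.0 and 85.5 CPM in controls and 67.4, 91.8 and 108 CPM with TNP-KLH. Thrombocyte sums with TNP-LPS lay below all controls. T cell sums were instead lowest in number 3 of every group, and monocyte sums overlapped between groups. The part of these marker sums in the changes of the apoptosis genes was not tested.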

How the data were processed

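RNA was measured in 9 libraries of sorted IgM+ B cells, made with the TruSeq stranded total RNA kit and sequenced as single reads. The deposited values are raw read counts per gene, which the authors made by mapping with TopHat to the Genoscope trout genome and counting with SAMtools and HTSeq; their versions, and whether strand was used, are not stated in the labels or methods, so antisense overlaps could not be told apart. The tables also hold DESeq means, fold changes and p-values of the authors' own comparisons, which were not used. Columns of samples outside this series numbered 0. A RefSeq gene table matched 0 identifiers, so no coordinates or sequences are given.

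Genes with at least 5 reads in a library were kept (31691 of 46585). Counts were tested with edgeR 4.0.16 (R 4.3.3, TMM factors, quasi-likelihood test, 3 groups, 9 libraries, Benjamini-Hochberg threshold 0.05); each SE is the log2 fold change divided by the square root of F. The common biological coefficient of variation was 0.446. The replicate numbers were taken to pair the libraries from the data, not from a stated design: deviations from group means correlated at 0.227 to 0.645 for the 9 pairs with the same number and at -0.499 to 0.0345 for the 18 others. Alternatives were the replicate block, DESeq2 1.42.0, RLE factors, no filter, at least 10 reads in at least 3 libraries, 6 libraries a comparison, and leaving out each library; those without the libraries numbered 2, and those joining the block to a left-out library, were added after seeing the data. Variance shares and correlations used log2(CPM + 0.5). On simulated counts for 31691 genes with 200 changed, edgeR was tested for recovery.

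The genes, roles and lists were chosen with earlier results of these data known, and a few role and list patterns were corrected from the descriptions once the table was seen. Genes were named when called, when among the 4 highest in CPM of their role, when among the 3 smallest p for TNP-LPS or the 2 smallest for TNP-KLH in their role, or when sharing a called gene's description; this gave 80 genes. The Bcl-2, BOK, caspase-8-like isoform X1, survivin, BIRC6-like GSONMG00000306001 and Siva isoform X1 genes, 6 in all, were named outside that rule after their values were seen, and the rest are given by counts and ranges.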

Additional observations from a re-analysis of the deposited data

How the results depend on the processing

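Of the calls with TNP-LPS (19 higher and 3 lower), most alternatives kept the counts within 1.5 times. Outside that range, DESeq2 called 5 lower with TNP-LPS, 2 higher with TNP-KLH and 5 higher between the antigens (TNP-LPS against TNP-KLH). Also outside it, the stricter filter called 1 higher with TNP-KLH, and a fit on only the 6 libraries compared called 11 higher with TNP-LPS. The shares of all genes called with the stricter filter and with only 6 libraries were not computed, so the counts from those fits have no background. With the replicate block the counts were 33 higher and 12 lower with TNP-LPS, 14 higher and 3 lower with TNP-KLH, and 10 higher and 5 lower for TNP-LPS against TNP-KLH. Without the libraries numbered 2, TNP-LPS had 9 higher and 1 lower (5.500% and 2.39% of all genes). The same with the block gave 36 and 9 for TNP-LPS, where 17.9% and 15.4% of all genes were called. It gave 15 and 7 for TNP-KLH (6.88% and 4.995%) and 15 and 5 between the antigens (10.9% and 7.43%). Leaving out each library in turn gave 10 to 19 higher and 3 to 4 lower with TNP-LPS (7.59% to 9.19% and 3.91% to 5.95% of all genes). In the other comparisons these fits called 0 of the 125 in either direction. They also called few of all genes, at most 0.953% higher and 0.167% lower with TNP-KLH. Between the antigens they called at most 1.82% higher and 0.858% lower. With the block the leave-one-out ranges were 29 to 34 higher and 8 to 12 lower with TNP-LPS (13.5% to 16.8% and 11.2% to 14.5% of all genes). For TNP-KLH they were 2 to 20 and 1 to 6 (2.53% to 8.06% and 1.07% to 6.43%). Between the antigens they were 3 to 15 and 1 to 10 (3.66% to 10.3% and 3.12% to 10.2%). A single call was in the other direction: the BMF-like gene GSONMG00025522001 was lower with TNP-LPS at a log2 fold change of -0.52 (adjusted p = 0.0499, edgeR) with the block and without the libraries numbered 2, against 0.04 and no call with all libraries and no block. The cause of these shifts was not tested. Genes under about 1 CPM, 21 of the 125, were limited by depth.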

Other observations

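Gasdermins form the pores of pyroptosis, and of 10 gasdermin genes 1 rose with TNP-LPS and none fell, where 10.04% and 6.73% of all genes did. It is described as non-syndromic hearing impairment protein 5-like, the older name of gasdermin E, which executioner caspases cut in mammals. GSONMG00010828001 averaged 0.0337 CPM in controls, 0.424 CPM with TNP-KLH and 4.15 CPM with TNP-LPS (edgeR adjusted p = 0.00719 for TNP-LPS). The control mean was at the floor of detection, so the size of this rise was limited by depth.

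Genes named for programmed cell death, 25 in all, gave 3 rises and 4 falls with TNP-LPS, beside the same shares of all genes. Both genes described as death-associated protein-like 1, a name linked to autophagy, fell: GSONMG00063015001 averaged 183 CPM in controls, 107 CPM with TNP-KLH and 70.5 CPM with TNP-LPS, and GSONMG00069670001 averaged 55.7, 20.6 and 11.1 CPM in the same order (edgeR adjusted p = 0.00246 and 0.00181 for TNP-LPS). A partial gene for programmed cell death protein 4, an inhibitor of translation initiation, fell from 34.4 CPM to 7.23 CPM (GSONMG00017883001, adjusted p = 0.00722). The rises were in 2 genes for programmed cell death protein 2 and 1 for programmed cell death protein 5, with log2 fold changes from 0.70 to 1.51.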
